A study of Mus musculus with 39 samples.

Results

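The control livers of a mouse experiment on reduced oxygen were deposited as 8 arrays whose titles carry the replicate numbers 1 to 8, out of 39 arrays in the whole series. Here the arrays numbered 5 to 8 were set against those numbered 1 to 4, with 4 arrays in each set, and the sets were chosen by the number in the title alone. Both sets are labelled as liver of B6C3F1 mice, the first-generation hybrid of C57BL/6 females and C3H males, as control, as vehicle with no substance named, and as taken at 2 hours. No array with reduced oxygen enters this comparison, so it asks how far control livers of the same label differ from each other. Mice were killed under ketamine and acepromazine, and RNA came from a piece of the left lateral lobe, which was hybridised to Affymetrix GeneChips. The labels give no age, sex, feeding state or hour of day, do not say what separates numbers 1 to 4 from 5 to 8, and do not say that each array is a separate mouse, so the p-values measure only the spread between these samples. The other livers and spleens used below carry the same numbers, from reduced oxygen livers and vehicle spleens at 2 hours. All levels are log2 intensities, differences are replicates 5 to 8 minus replicates 1 to 4, and a gene was called when limma's Benjamini-Hochberg adjusted p over all genes tested was under 0.05.

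The liver clock is a loop in which Bmal1 (gene Arntl) with Clock or Npas2 switches on the Per and Cry genes, whose products shut the pair off, while Rev-erb and Ror receptors act on Arntl itself and the PAR bZIP factors Dbp, Tef and Hlf carry the rhythm to enzymes of metabolism. Feeding acts on the same enzymes through insulin, which holds back Foxo1 and raises lipid synthesis, and fasting acts through PPAR alpha, which raises fatty acid oxidation. Hepatocytes answer interleukin 6 and interleukin 1 with acute phase proteins, among them serum amyloid A and orosomucoid.

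The control liver sets differed at 3855 of the 12735 genes tested, or 30.3%. Of these, 1275 genes (10.0%) were higher and 2580 (20.3%) lower in replicates 5 to 8. Most differences were small: 53 genes (0.416%) were higher and 279 (2.19%) lower by at least 1.5-fold among the called genes. The split of directions moved with the scaling, since 66.9% of calls were lower with the values as deposited, 45.6% after quantile normalization (1248 higher, 1045 lower) and 83.7% after median centring (758 higher, 3903 lower). The median difference of all genes was -0.06 as deposited, 0.01 after quantile normalization and -0.14 after centring. No called gene named here turned its direction under either scaling. Among all tested genes, called or not, every array of replicates 5 to 8 lay above the whole other set at 1336 genes (10.5%). Every such array lay below the whole other set at 2714 genes (21.3%). Sets without overlap were thus common, and this trait alone does not mark out a gene named below.

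The sets also stood apart in array measurements. In replicates 5 to 8 the 3' minus 5' difference of the beta-actin control probe sets, which grows as RNA or its labelled copy gets shorter, lay between 0.57 and 0.69, against 0.95 to 1.55 in replicates 1 to 4. For the pyruvate carboxylase control it lay between 1.76 and 2.61, against 3.33 to 4.44. Array medians lay at 5.31 to 5.32 log2 units in replicates 5 to 8, against 5.22 to 5.26 in replicates 1 to 4. The sets therefore did not overlap in these 3 measures, and the largest beta-actin differences belonged to replicates 2 and 3. A model of all 16 liver arrays, control and reduced oxygen in 4 groups, called 3453 genes for the control liver sets, and the same model with the mean 3' minus 5' difference of beta-actin and Gapdh as a covariate called 1824 (14.3%), 1210 of them among the 3855. Without the covariate, the 16-array model gives the same control liver differences as the main test. Only their spread changes, since it is taken from the reduced oxygen livers too. The covariate values below come from the 16-array model with the covariate. In control livers the covariate lay between 0.20 and 0.33 in replicates 5 to 8, against 0.48 to 1.08 in replicates 1 to 4. It did not overlap between these sets, so a call lost with it can follow from lower precision, a smaller difference or both. The part of the covariate in the remaining differences was not tested.

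**Figure D1:**
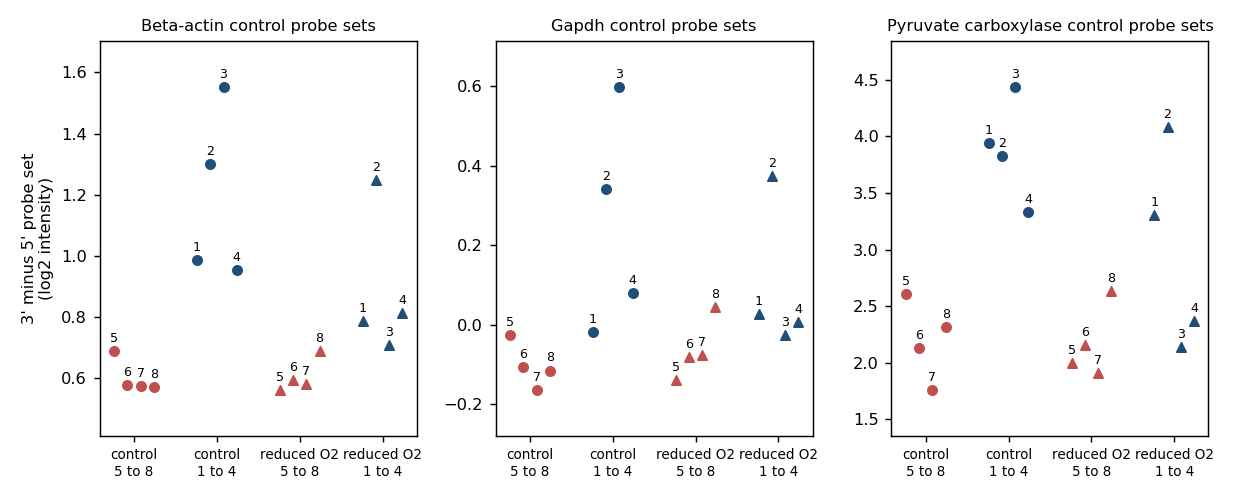
The 3 panels give the 3' minus 5' log2 difference of the beta-actin, Gapdh and pyruvate carboxylase control probe sets in each control (circles) and reduced oxygen (triangles) liver array, labelled by replicate number, with replicates 5 to 8 left of 1 to 4. For beta-actin in control livers, replicates 5 to 8 lie between 0.57 and 0.69 and replicates 1 to 4 between 0.95 and 1.55.

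Direction moved with brightness. In 10 groups of genes of equal size, from dimmest to brightest, the median difference was 0.13, 0.13, 0.07, -0.01, -0.13, -0.17, -0.19, -0.18, -0.17 and -0.06. Dim genes were thus mostly higher in replicates 5 to 8 and brighter genes mostly lower. In the dimmest group 17.97% of genes were called higher and 2.75% lower, while in the eighth group 1.65% were called higher and 34.7% lower. Probe sets of 1 gene often disagreed: of 1898 called genes with at least 2 probe sets above the dim limit, 951 (50.1%) had all of them on the same side of 0.

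**Figure D2:**
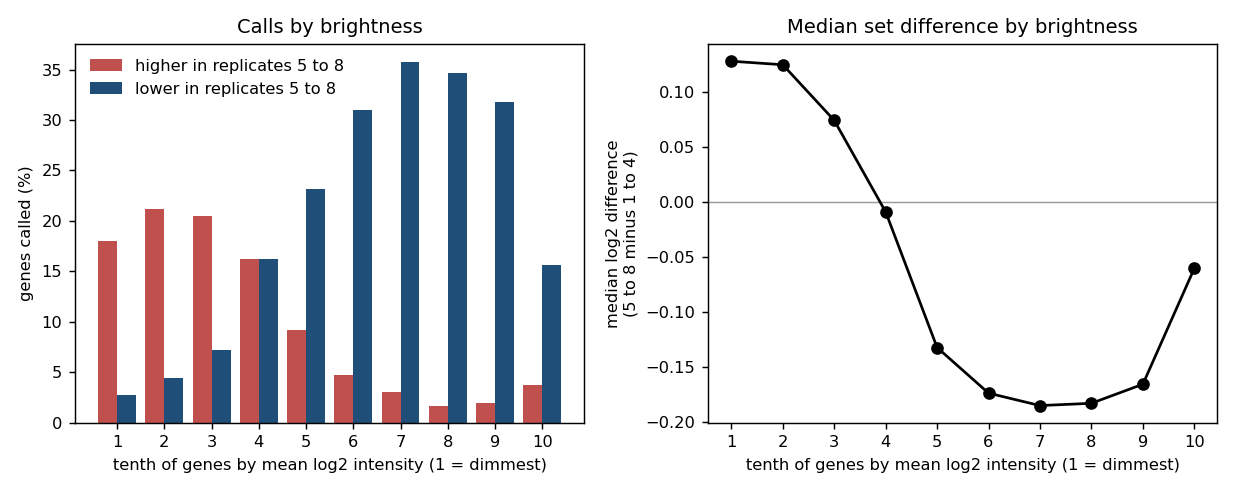
The bars give the percent of genes called higher and called lower in replicates 5 to 8, and the line the median log2 difference, for each of 10 equal groups of genes by mean log2 intensity in control livers. Calls of higher level reach 21.1% in the second group, and calls of lower level reach 35.7% in the seventh.

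Acute phase genes gave the largest falls of all genes. Of 28 tested acute phase genes, 11 fell and 1 rose in replicates 5 to 8, a share of 42.9% called against 30.3% of all genes, with a median of -0.17 against -0.06. Saa2, a serum amyloid A protein of high-density lipoprotein, fell most, and Orm2, an orosomucoid, Lcn2, the iron-siderophore carrier lipocalin 2, and the metallothioneins Mt1 and Mt2 also fell. Fgb, a chain of fibrinogen, differed by -0.15 and was not called (adjusted p = 0.123). In the 16-array model with the 3' to 5' covariate, 2 of the 28 were called, both lower.

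Saa2 read 9.53, 8.99, 9.26 and 8.93 in replicates 5 to 8, against 12.11, 12.79, 12.09 and 13.36 in replicates 1 to 4. The sets did not overlap, and the lowest array of replicates 1 to 4 stood well above every array of replicates 5 to 8. Saa2 fell by 3.41 ± 0.26 (SE) on the log2 scale, so replicates 1 to 4 were 10.6-fold higher (adjusted p = 0.000187). Saa1 read 12.45, 11.48, 12.19 and 11.58 in replicates 5 to 8, against 13.39, 13.87, 13.57 and 14.02 in replicates 1 to 4. It fell by 1.79 ± 0.21 (adjusted p = 0.00117). Saa1 and Saa2 are near-identical paralogs whose probes may read each other's RNA, so their separate sizes are uncertain. Saa3, the form also made by macrophages, read 7.61, 7.68, 7.64 and 7.21 in replicates 5 to 8, against 8.37, 9.29, 8.32 and 8.69 in replicates 1 to 4, a difference of -1.13 ± 0.19 (adjusted p = 0.00334).

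The RefSeq promoters of Saa1, Saa2 and Orm2 are shown, the first pair because they show how alike the paralogs are, and Orm2 as the gene with the largest fall after Saa2. Over the 250 bases before the start, 238 of 251 aligned positions were identical, or 94.8%. Sequences run 5' to 3' on the gene's strand of GRCm38.p6, and capitals mark a match to TTGCNNAA, a form of the C/EBP motif, which 9.56% of all RefSeq promoters of that length hold on either strand.
Saa1, chr7:46742981-46743180, minus strand: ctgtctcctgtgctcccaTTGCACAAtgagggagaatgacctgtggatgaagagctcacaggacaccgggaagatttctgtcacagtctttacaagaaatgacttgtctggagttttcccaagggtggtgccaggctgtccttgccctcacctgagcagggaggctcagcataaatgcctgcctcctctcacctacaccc
Saa2, chr7:46751633-46751832, plus strand: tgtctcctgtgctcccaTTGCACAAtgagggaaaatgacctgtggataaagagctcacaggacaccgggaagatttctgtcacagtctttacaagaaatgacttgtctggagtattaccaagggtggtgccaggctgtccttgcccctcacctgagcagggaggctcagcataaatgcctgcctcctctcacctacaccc
Orm2, chr4:63362299-63362448, plus strand: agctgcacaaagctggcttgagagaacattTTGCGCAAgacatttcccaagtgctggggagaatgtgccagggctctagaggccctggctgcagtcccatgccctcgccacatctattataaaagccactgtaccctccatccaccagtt
A match is a description of the letters and not evidence that a factor binds there.

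Orm2 read 7.01, 6.92, 6.87 and 6.65 in replicates 5 to 8, against 8.35, 10.19, 9.76 and 10.05 in replicates 1 to 4, and fell by 2.73 ± 0.32 (adjusted p = 0.00117). Lcn2 read 6.90, 6.35, 6.20 and 6.03 in replicates 5 to 8, against 7.95, 7.31, 8.57 and 9.91 in replicates 1 to 4, and fell by 2.07 ± 0.44 (adjusted p = 0.00767). Neither gene's sets overlapped, and replicates 1 to 4 were spread more widely than replicates 5 to 8. Hamp2, a hepcidin-type peptide gene, went the other way, at 11.198, 11.458, 11.997 and 11.926 in replicates 5 to 8, against 10.918, 10.171, 11.283 and 10.839 in replicates 1 to 4. Its difference was 0.84 ± 0.23 (adjusted p = 0.021), and the call was lost without replicate 7 or 8 (adjusted p up to 0.0613) and in the 16-array model (0.0771). The Hamp2 probe set used may cross-hybridise. The other, at means of 4.63 against 4.46, differed by 0.17 and lay under the dim limit (4.93). The calls of Saa1, Saa2, Saa3, Orm2 and Lcn2 were kept in all 8 fits that left out 1 array. In the 16-array model Saa2 and Saa1 stayed called, while Orm2 (adjusted p = 0.108), Lcn2 (0.293) and Saa3 (0.393) lost the call without any covariate. That model leaves the control liver differences unchanged and pools in the spread of the reduced oxygen livers, where Lcn2 had low and high arrays in both sets. With the covariate Saa2 and Saa1 stayed called (0.0393 and 0.0447), and Orm2 (0.207), Lcn2 (0.259) and Saa3 (0.471) did not.

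**Figure D3:**
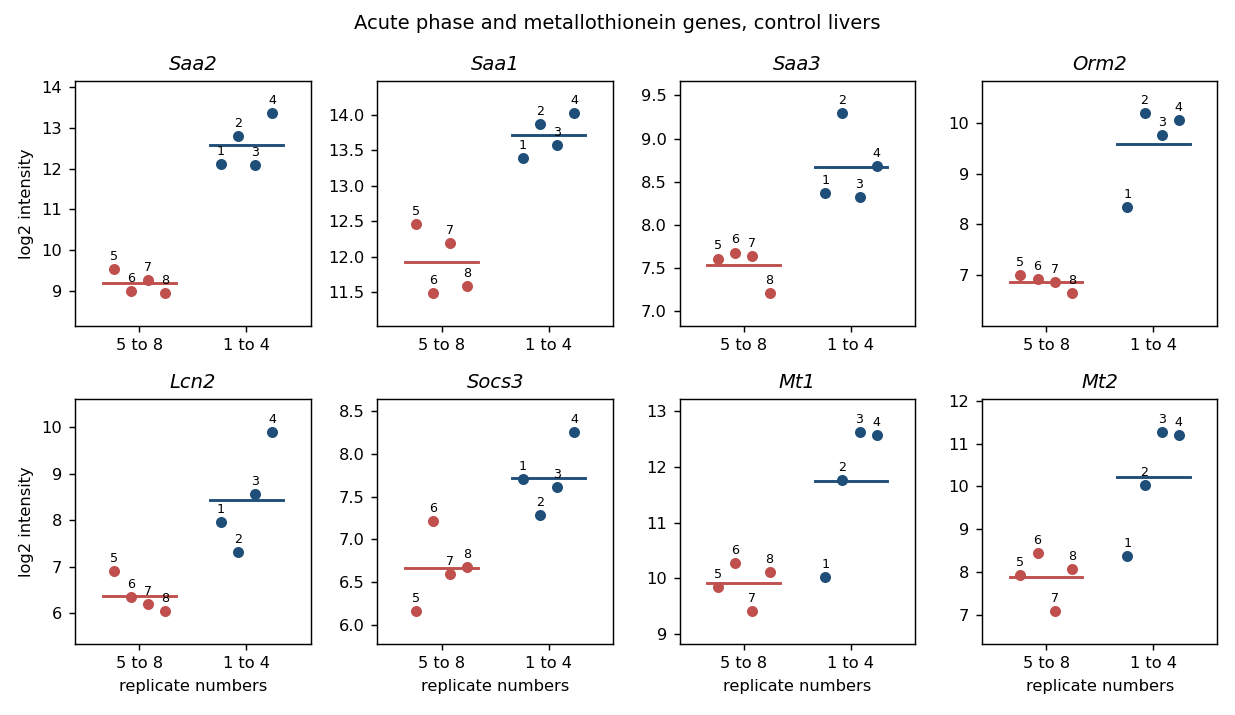
The plot gives the log2 intensity of acute phase genes in each control liver array, replicates 5 to 8 left of replicates 1 to 4, with bars at the set means. Saa2 lies between 8.93 and 9.53 in replicates 5 to 8 and between 12.09 and 13.36 in replicates 1 to 4.

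The metallothionein genes Mt1 and Mt2, whose products bind zinc and copper, fell too, but with overlap. Mt2 read 7.92, 8.43, 7.07 and 8.07 in replicates 5 to 8, against 8.37, 10.03, 11.28 and 11.20 in replicates 1 to 4. Replicate 1 lay within the range of replicates 5 to 8, and the difference was -2.34 ± 0.55 (adjusted p = 0.0114). Mt1 read 9.84, 10.26, 9.40 and 10.11 in replicates 5 to 8, against 10.01, 11.77, 12.64 and 12.57 in replicates 1 to 4, a difference of -1.84 ± 0.48 (adjusted p = 0.0171). Both calls were lost without the arrays of replicates 2 and 3, at adjusted p = 0.11 for Mt1 and 0.07 for Mt2, and both with the 3' to 5' covariate (0.176 and 0.139), though not in the 16-array model without it. The Mt1 call was also lost without probe sets that may cross-hybridise, at -0.44 (adjusted p = 0.307).

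Among cytokine and NF-kB response genes, 6 of 28 fell and 2 rose in replicates 5 to 8, or 28.6% called against 30.3% of all genes. Socs3, the inhibitor of interleukin 6 signalling, read 6.16, 7.22, 6.59 and 6.68 in replicates 5 to 8, against 7.71, 7.29, 7.61 and 8.26 in replicates 1 to 4, and fell by 1.06 ± 0.23 (adjusted p = 0.00825). The sets of Socs3 did not overlap, with replicate 6 just under replicate 2. Icam1, an adhesion receptor for leukocytes, fell by 0.49 (adjusted p = 0.00241), while Vcam1, another such receptor, was higher by 0.44 (adjusted p = 0.00307) and the NF-kB subunit gene Nfkb2 by 0.54 (adjusted p = 0.00152). Nfkbiz, an NF-kB cofactor, fell by 0.55 (adjusted p = 0.0195), a call lost without replicate 6 (0.0578). In the 16-array model without the covariate, Socs3 (0.15), Icam1 (0.333) and Nfkbiz (0.467) lost the call, and with it Vcam1 (0.0684) did too, while Nfkb2 kept it in both. The rises depend on the probe set: the other Vcam1 probe sets stood at 0.02 and -0.15, and Nfkb2 stood at 0.07 without probe sets that may cross-hybridise (0.46). So do the falls of Socs3 and Nfkbiz. The other Socs3 probe sets stood at -0.37 and -0.54, and those of Nfkbiz at -0.07 and 0.25. With the mean of its probe sets Nfkbiz lost the call.

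Of 17 chemokine genes, at array medians of 6.10 to 6.26 in replicates 5 to 8, against 6.08 to 6.15 in replicates 1 to 4, 23.5% were called, close to the 20.5% of all genes called higher in the third brightness group. The calls were 4 rises and 0 falls: Ccl8 by 0.53 (adjusted p = 0.00445), Ccl4 by 0.46 (0.00371), Cxcl16 by 0.35 (0.008) and Cx3cl1 by 0.21 (0.0375). The other Cxcl16 probe set stood at -0.20. All 4 attract leukocytes, and the Cx3cl1 call was lost in 7 of 8 fits without 1 array (all but that without replicate 1), with an adjusted p of up to 0.0915. Of 27 interferon-stimulated genes, 6 fell and 1 rose, or 25.9% called against 30.3% of all genes, with a median of -0.22. Ifih1, a sensor of double-stranded RNA, fell by 0.40 (adjusted p = 0.0121) and the guanylate-binding protein gene Gbp3 by 0.48 (0.018); Stat2, which carries interferon signals to the nucleus, was higher by 0.38 (0.0358), a call lost in 7 of 8 such fits (all but that without replicate 1, up to 0.0973). With the covariate Ifih1 kept its call (0.0107), and Gbp3 (0.11) and Stat2 did not. The immune groups thus held genes of both directions. Over all 100 tested inflammation genes 8 rose and 23 fell, so 31.0% were called, close to the 30.3% of all genes.

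Markers of other cells were read beside these genes. Of 17 macrophage markers, 3 fell and 0 rose, or 17.6% called against 30.3% of all genes, with a median of -0.25. Mpeg1, which encodes a pore-forming protein of macrophages, fell by 0.63 (adjusted p = 0.00245, and 0.182 in the 16-array model), and the array medians of the list were 8.56 to 8.80 in replicates 5 to 8, against 8.33 to 9.17 in replicates 1 to 4. The list went the other way in reduced oxygen livers, where 8 of the 17 were called higher and 0 lower in replicates 5 to 8, with a median of 0.56. Of all genes there, 10.1% were called higher and 20.7% lower. Of 8 neutrophil markers in control livers, 4 rose and 1 fell, or 62.5% called against 30.3% of all genes. The fall was that of Lcn2, which is also on the acute phase list. Array medians of the neutrophil list were 5.61 to 5.77 in replicates 5 to 8, against 5.42 to 5.47 in replicates 1 to 4. The neutrophil medians stood near the median of the whole array and in the brightness range where most genes were higher in replicates 5 to 8. Of 14 hepatocyte markers, 0 were called by limma's adjusted p, with 1 at an unadjusted p under 0.05, at medians of 14.31 to 14.35, against 14.35 to 14.42, so both sets carried the defining RNAs of liver at near the top of the scale. In bulk tissue, fewer cells of a type and less RNA per cell cannot be told apart.

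Few clock genes were called. Of 44 tested clock genes 2 rose and 4 fell in replicates 5 to 8, or 13.6% called against 30.3% of all genes, and only 1 of them by at least 1.5-fold. Of 18 tested rhythmic output genes, 0 were called by limma's adjusted p and 0 had an unadjusted p under 0.05. The repressor Cry2 and the PAR bZIP factor Hlf fell, and Arntl2, a relative of Bmal1, rose. Among kinases and ligases that set the stability of PER and CRY proteins, Csnk1d rose while the ligase adaptor Btrc and the kinase Gsk3b fell. Under quantile normalization all 4 falls (Cry2, Hlf, Btrc and Gsk3b) lost the call, while the 2 rises kept it.

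Hlf read 7.70, 7.97, 8.10 and 8.03 in replicates 5 to 8, against 8.48, 8.12, 8.81 and 9.14 in replicates 1 to 4. Its sets did not overlap, with replicate 2 only just above replicate 7, and Hlf fell by 0.69 ± 0.19 (adjusted p = 0.0195). Without replicate 5 its adjusted p was 0.0559, and with the 3' to 5' covariate 0.0755. Cry2 read 6.65, 7.11, 7.15 and 7.41 in replicates 5 to 8, against 7.58, 7.30, 7.60 and 7.98 in replicates 1 to 4, so replicate 8 lay above replicate 2. The difference of Cry2 was -0.53 ± 0.17 (adjusted p = 0.0362), and the call was lost without replicate 5, 6, 7, 1, 3 or 4, at an adjusted p of up to 0.0871.

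Arntl2 read 6.16, 6.03, 6.13 and 6.05 in replicates 5 to 8, against 5.75, 5.68, 5.73 and 5.82 in replicates 1 to 4, a difference of 0.35 ± 0.07 (adjusted p = 0.00585). Csnk1d, the casein kinase that phosphorylates PER, read 10.20, 10.32, 10.21 and 10.28 in replicates 5 to 8, against 9.72, 9.80, 9.84 and 9.82 in replicates 1 to 4, a difference of 0.46 ± 0.07 (adjusted p = 0.00208). Both genes had sets without overlap and kept the call in every fit without 1 array and with the covariate, but other Csnk1d probe sets ranged down to -0.19. Btrc fell by 0.36 (adjusted p = 0.0198, 0.0584 without replicate 7 and 0.769 with the mean of its probe sets), and Gsk3b by 0.27 (adjusted p = 0.0364, lost without replicate 5, 6, 7, 8, 3 or 4, up to 0.102).

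The clock genes with the widest range did not separate the sets. Dbp, the PAR bZIP factor with the strongest daily swing in liver, read 5.21, 6.37, 8.72 and 7.94 in replicates 5 to 8, against 6.57, 6.01, 8.40 and 11.32 in replicates 1 to 4. Its highest and lowest arrays differed 69.2-fold, and both sets held low and high arrays. The set difference of Dbp was -1.02 ± 1.07 (adjusted p = 0.487), and it was 0.06 without replicate 4. Tef read 8.55, 9.03, 9.55 and 9.35 in replicates 5 to 8, against 8.64, 8.88, 9.69 and 10.46 in replicates 1 to 4. Nr1d2, which encodes Rev-erb beta, read 9.18, 9.76, 10.23 and 10.15, against 9.61, 9.38, 10.08 and 10.93. The mean of the probe sets had the other sign for Tef (0.03) and Nr1d2 (0.17), neither of them called. In Dbp, Tef and Nr1d2 alike, replicates 7, 3 and 4 stood above replicates 5, 1 and 2.

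Arntl ran the other way, at 8.29, 8.06, 7.77 and 7.99 in replicates 5 to 8, against 8.64, 8.51, 7.77 and 6.16 in replicates 1 to 4, with replicate 4 lowest. Npas2, the partner of Bmal1 in place of Clock, read 5.94, 6.35, 4.90 and 5.81 in replicates 5 to 8, against 6.43, 6.78, 5.90 and 4.89 in replicates 1 to 4. Cry1 read 6.42, 6.73, 6.23 and 6.62, against 7.27, 6.96, 6.90 and 5.94. Replicate 4 was again the lowest array of Npas2 and Cry1. Per3 read 5.05, 5.46, 5.88 and 5.68 in replicates 5 to 8, against 5.39, 5.11, 5.71 and 6.54 in replicates 1 to 4, and Ciart, a repressor of Bmal1 with Clock, read 6.15, 5.85, 6.44 and 6.02, against 5.60, 5.21, 6.03 and 6.94. Replicate 4 was the highest array for both. Per1, Per2, Nr1d1 and Clock differed by 0.07, 0.15, 0.29 and -0.07, and were not called.

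**Figure D4:**
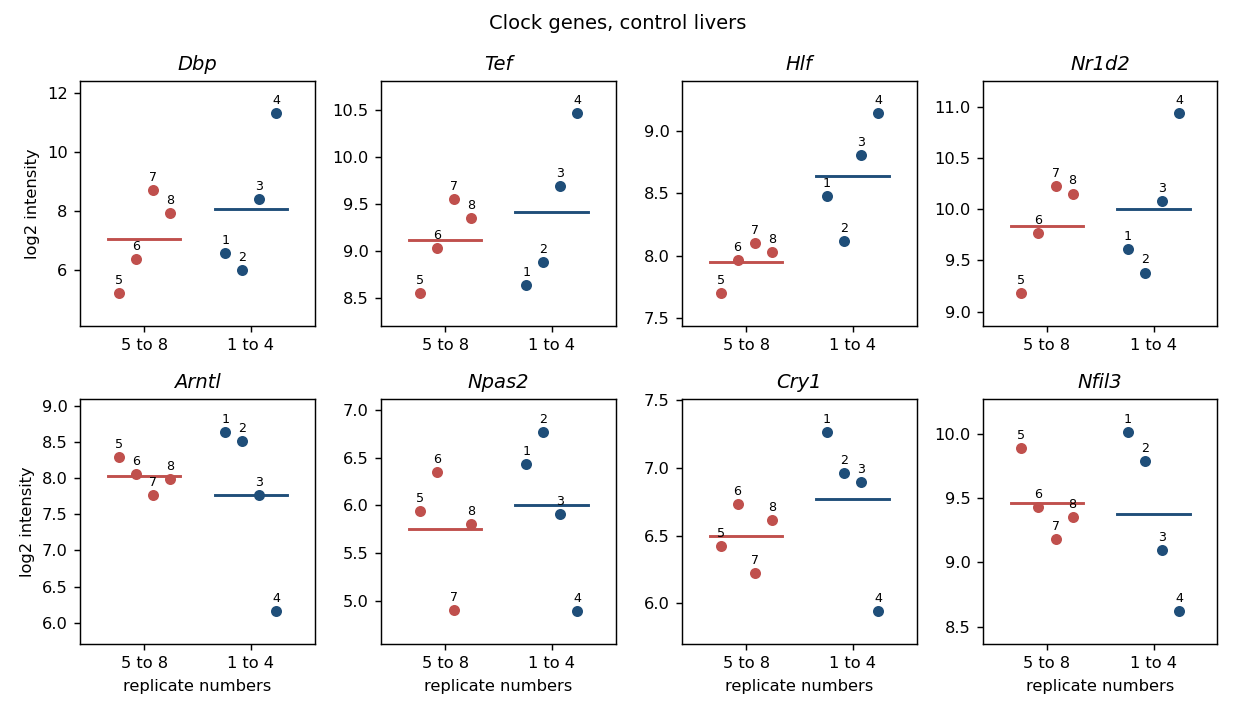
The plot gives the log2 intensity of core clock genes in each control liver array, replicates 5 to 8 left of replicates 1 to 4, with bars at the set means. Dbp runs between 5.21 and 11.32, and replicate 4 is its highest array and the lowest of Arntl.

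The spread within the sets, which leaves out the difference between them, was wide for these genes. The within-set standard deviation of Dbp, pooled over both sets, was 2.02 log2 units, rank 1 of 12735 genes, and the ranks were 19 for Arntl, 27 for Npas2, 37 for Tef and 56 for Nr1d2. Over the 21 tested core clock genes the median within-set standard deviation was 0.435, against 0.133 for all genes, and 15 of the 21 were among the 1273 most spread. Without replicate 4 the medians were 0.324 and 0.128, 13 of 21 were that spread, and Dbp, at 1.45, had rank 3. Replicate 4 was the highest or lowest of the 8 arrays for 12 of the 21 genes, replicate 5 for 11 and replicate 6 for 0. In reduced oxygen livers grouped by the same numbers the medians were 0.317 and 0.150, with 12 of 21 that spread, and in vehicle spleens 0.178 and 0.141, with 5 of 21.

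In reduced oxygen livers, the array numbered 4 was the highest or lowest for 14 of the 21 genes, while in vehicle spleens number 2 was so for 12 and number 4 for 8. In reduced oxygen livers it held the highest Dbp, at 8.94, while the other 7 read 4.75 to 6.69, and the lowest Arntl, at 7.03, while the others read 8.14 to 8.48. In vehicle spleens it held the highest Dbp, at 9.21, against 7.43 to 8.40. Dbp, Tef, Per3 and Hlf were highest in number 4 in all 3 groups of arrays. The labels do not say whether organs or arrays with the same number come from the same mouse or day, and the hour of killing was not given.

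Of 22 listed core clock genes, 19 matched a RefSeq promoter, and 5 held the E-box CACGTG, 3 the D-box TTANGTAA and 4 the receptor half-site AGGTCA in the 250 bases before the start, on either strand. Of all promoters, each counted singly, 6.02%, 2.06% and 14.02% hold them. A clock gene was counted when any of its listed promoters matched, so the counts and these shares are not in the same unit. The called Hlf, Cry2 and Arntl2 held none of the 3. The stretches below are those of Ciart, Per3, Tef and Cry1, chosen after their values were seen, for wide spread and a match. Capitals mark the E-box in Ciart, Tef and Cry1 and the D-box in Per3, on GRCm38.p6.
Ciart, chr3:95882292-95882391, minus strand: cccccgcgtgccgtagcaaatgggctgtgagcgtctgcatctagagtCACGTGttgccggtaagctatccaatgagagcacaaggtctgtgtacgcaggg
Per3, chr4:151044816-151044915, minus strand: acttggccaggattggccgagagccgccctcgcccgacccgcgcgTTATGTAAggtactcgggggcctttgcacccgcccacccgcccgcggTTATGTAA
Tef, chr15:81802499-81802598, plus strand: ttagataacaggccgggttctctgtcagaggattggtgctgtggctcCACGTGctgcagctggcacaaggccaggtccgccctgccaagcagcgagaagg
Cry1, chr10:85185062-85185161, minus strand: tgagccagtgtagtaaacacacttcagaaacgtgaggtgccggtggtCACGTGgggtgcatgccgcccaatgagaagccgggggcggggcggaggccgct
Ciart and Per3, which were highest in replicate 4, and Cry1, which was lowest there, hold an E-box or D-box in this window. Dbp, also highest in replicate 4, and Arntl and Npas2, also lowest there, hold none of the 3 motifs in the 250 bases. Dbp, Arntl and Npas2 were spread more widely within the sets than Ciart, Per3 and Cry1. No test was run on these letters.

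Of 76 tested feeding genes, 2 rose and 10 fell in replicates 5 to 8, or 15.8% against 30.3% of all genes. Of 15 insulin and feeding-induced genes, 0 were called by limma's adjusted p, with 3 at an unadjusted p under 0.05. Ppp1r3b, which targets a phosphatase to glycogen, differed by 0.46 (adjusted p = 0.098), and Me1, the malic enzyme that supplies NADPH, by 0.42 (0.11). The 12 calls lay among FoxO targets, gluconeogenic and amino acid genes, and PPAR alpha targets.

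Insr, the insulin receptor, read 9.28, 9.29, 9.29 and 9.33 in replicates 5 to 8, against 9.80, 10.05, 10.13 and 9.95 in replicates 1 to 4, and fell by 0.69 ± 0.08 (adjusted p = 0.00117). Its sets did not overlap, the call was kept in every fit without 1 array and with the covariate, yet its probe sets ranged between -0.69 and 0.07. Foxo1, the factor that insulin restrains, fell by 0.54 ± 0.11 (adjusted p = 0.00711), with probe sets between -0.54 and 0.06 and no call under quantile normalization or with the covariate. Ddit4, an inhibitor of the TOR kinase, rose by 0.58 (adjusted p = 0.0385), a call lost without replicate 5, 7, 8, 1 or 2 (up to 0.0953) and in the 16-array model (0.0604). Tat, which breaks down tyrosine and answers glucocorticoids, read 12.66, 13.19, 13.34 and 13.11 in replicates 5 to 8, against 12.45, 12.56, 12.53 and 12.42 in replicates 1 to 4. It rose by 0.59 ± 0.13 (adjusted p = 0.00829) without overlap, and lost the call with the covariate (0.0705). Tat was the only rise among 20 gluconeogenic and amino acid genes, of which 2 fell, so 15% were called against 30.3% of all genes. Gpt2 fell by 0.44 (adjusted p = 0.0172) and Prodh by 0.44 (0.0331), both without overlap. The Gpt2 call was lost without replicate 6 (0.0528), and its probe sets ranged between -0.44 and 0.22. The Prodh call was lost without replicate 5, 6, 7, 2 or 3 (up to 0.0825). Both calls were lost with the covariate.

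Of 26 PPAR alpha targets, 6 fell and 0 rose, or 23.1% called against 30.3% of all genes (20.3% called lower), with a median of -0.15 against -0.06. Their mean level was 9.71 in replicates 5 to 8 and 9.93 in replicates 1 to 4, within the ninth brightness group. In that group 31.7% of all genes were called lower, with a median of -0.17, so the list did not fall more often than genes of like brightness. Acaa1a, a peroxisomal thiolase of fatty acid oxidation, read 7.94, 8.12, 8.00 and 8.10 in replicates 5 to 8, against 8.48, 8.64, 8.99 and 8.79 in replicates 1 to 4, and fell by 0.69 ± 0.11 (adjusted p = 0.00245). Its sets did not overlap, and it was called with the covariate too (0.0335). Both of its probe sets may cross-hybridise, and the other stood at -0.23. Its paralog Acaa1b fell by 0.35 (adjusted p = 0.00658), the enoyl-CoA isomerase gene Eci2 by 0.26, and the carnitine carrier Slc25a20 by 0.24, the last pair with calls lost without at least 1 array (Eci2 without 5, 7 or 8, up to 0.0626, and Slc25a20 without 6, 7, 1 or 4, up to 0.0913). Vnn1, a pantetheinase, differed by -0.76 (adjusted p = 0.0427) with overlapping sets, and its call was lost in 7 of 8 fits without 1 array (all but that without replicate 3, up to 0.105). In the 16-array model without the covariate Acaa1b (0.333), Eci2 (0.077), Slc25a20 (0.0924) and Vnn1 (0.0855) lost the call.

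Of 88 tested lipid genes 6 rose and 9 fell in replicates 5 to 8, or 17.0% called against 30.3% of all genes. Mgll, which releases the last fatty acid from monoacylglycerol, read 9.80, 9.81, 9.91 and 9.76 in replicates 5 to 8, against 10.57, 10.49, 10.58 and 10.55 in replicates 1 to 4. It fell by 0.73 ± 0.07 (adjusted p = 0.000596), without overlap, with an adjusted p of 0.0856 with the covariate and probe sets between -0.73 and 0.13. Plin5, a coat protein of lipid droplets, fell by 0.67 ± 0.13 (adjusted p = 0.00601), Apoa4, an apolipoprotein, by 0.51 (0.00281), and Pnpla2, the lipase ATGL, by 0.40 (0.0232). Lpl, lipoprotein lipase, rose by 0.54 (0.0202). With the covariate, Plin5 (0.492), Apoa4 (0.208) and Pnpla2 (0.589) lost the call, Lpl lost it in the 16-array model without the covariate (0.0831) but not with it (0.0432), and the other probe set of Plin5 stood at -0.19. The mean of the Pnpla2 probe sets stood at -0.07. Lost without 1 array were Pnpla2 (replicate 5, 6, 7 or 2, up to 0.0618) and Lpl (replicate 6, 0.0593).

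In fatty acid synthesis 2 of 20 genes rose and 1 fell, or 15% called against 30.3% of all genes. Acss2, which makes acetyl-CoA from acetate, rose by 0.43 (adjusted p = 0.00751, 0.0804 in the 16-array model and 0.294 with the covariate), and Elovl2, an elongase of long-chain fatty acids, by 0.26 (0.0298, lost without replicate 5, 6, 7, 1, 2 or 3, up to 0.0807, and in the 16-array model, 0.217). Acaca, acetyl-CoA carboxylase, fell by 0.46 ± 0.07 (adjusted p = 0.00229), but its other probe set stood at 0.70 and the mean of its probe sets at 0.12, so its direction depends on the probe set. Of 23 cholesterol genes 2 rose (Tm7sf2 by 0.28 and Sc5d by 0.30, enzymes of the sterol pathway) and 0 fell. That is 8.7% called, against 30.3% of all genes. Each of the 2 calls was lost in 6 of 8 fits without 1 array (without replicate 5, 6, 7, 8, 2 or 3). The adjusted p went up to 0.0947 for Tm7sf2 and 0.0887 for Sc5d. Both calls were also lost with the covariate (0.501 and 0.646). Of 19 bile acid genes, 3 fell and 0 rose, or 15.8% called against 30.3% of all genes (20.3% called lower). Nr1h4, the bile acid receptor FXR, read 9.77, 9.46, 9.72 and 9.62 in replicates 5 to 8, against 10.36, 10.08, 10.06 and 10.43 in replicates 1 to 4, and fell by 0.59 ± 0.11 (adjusted p = 0.00409, and 0.023 with the covariate). Its sets did not overlap. Abcb4, the phospholipid pump of bile canaliculi, fell by 0.43 (adjusted p = 0.00245, and 0.0896 with the covariate), and Nr5a2, a nuclear receptor of bile acid synthesis, by 0.33 (0.0311, lost without replicate 5, 7, 2 or 4, up to 0.0703, and in the 16-array model, 0.0571).

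Outside these lists, the largest falls were those of Pabpn1, a poly(A)-binding protein, at -1.78 ± 0.14 (adjusted p = 0.000187), the transcription factor Tbx3 at -1.55 (0.00196), the phospholipid flippase Atp11a at -1.54 (0.00267) and the AMP deaminase Ampd2 at -1.35 ± 0.08 (6.06e-05). The other probe set of Ampd2 stood at 0.17, those of Tbx3 ranged up to 0.15 and those of Pabpn1 up to -0.21, and the other of Atp11a stood at -0.04, so the size depends on the probe set. Atp11a also lost the call in the 16-array model (0.0507) and Tbx3 with the covariate (0.0549). The largest rises were Hspa1b, an inducible HSP70, Ctse, cathepsin E, and Dnajb9, an endoplasmic reticulum chaperone. Hspa1b read 9.56, 9.65, 10.85 and 8.85 in replicates 5 to 8, against 9.06, 8.26, 8.95 and 8.57 in replicates 1 to 4, so the sets overlapped. Its difference was 1.02 ± 0.34 (adjusted p = 0.0447), a call lost in 7 of 8 fits without 1 array (all but that without replicate 8, up to 0.105). Ctse rose by 1.01 ± 0.11 (adjusted p = 0.00085) and Dnajb9 by 0.90 (0.0068), both kept in every fit without 1 array and lost with the covariate. Cirbp, the cold-inducible RNA-binding protein, fell by 0.51 ± 0.09 (adjusted p = 0.00445), also lost with the covariate.

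The same numbers were then compared in the 8 reduced oxygen livers, which share no array with the control livers. There 3916 genes (30.7%) were called, 1285 higher (10.1%) and 2631 lower (20.7%), and 2045 were called in the same direction in both, or 53.0% of the control liver calls and 52.2% of the reduced oxygen calls. Of the 3855 genes called in control livers, 3662 (95.0%) had the same sign in reduced oxygen livers, as had 79.8% of all genes. The beta-actin 3' minus 5' difference was 0.56 to 0.69 in replicates 5 to 8 of those livers, against 0.71 to 1.25 in replicates 1 to 4. The test of the difference between the oxygen arms called 0 genes by limma's adjusted p, with 1266 (9.94%) at an unadjusted p under 0.05. In vehicle spleens the sets gave 0 calls, with 3069 genes (24.1%) at an unadjusted p under 0.05 and 1187 calls without spleen replicate 5.

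**Figure D5:**
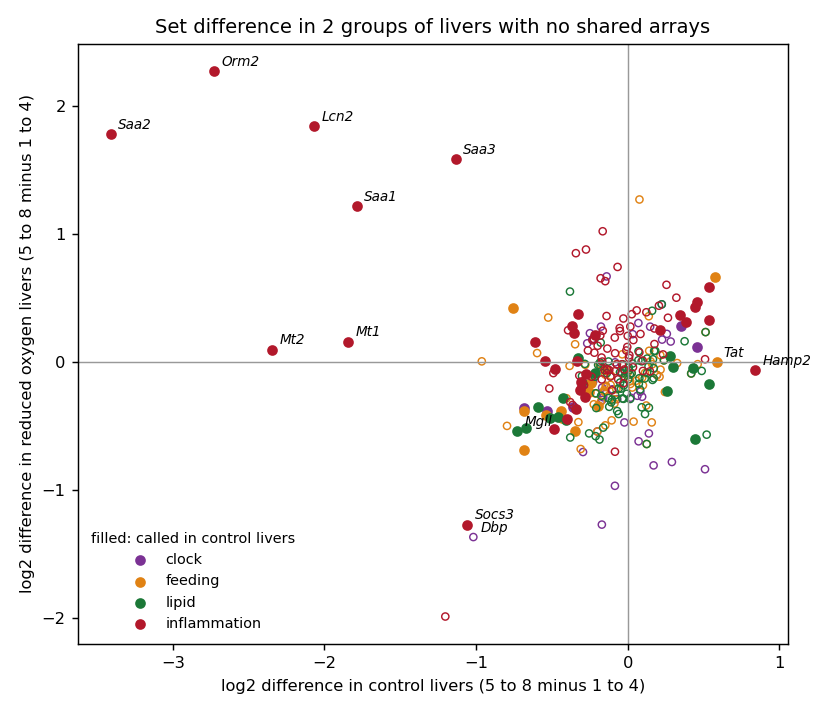
Each point is a tested clock, feeding, lipid or inflammation gene, filled where called in control livers, with its difference of replicates 5 to 8 minus replicates 1 to 4 in control livers and in reduced oxygen livers, both in log2 units. The acute phase genes Saa2 and Orm2 sit at -3.41 and -2.73 in control livers and at 1.78 and 2.27 in reduced oxygen livers.

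Several genes named above were lower in both liver groups. Insr differed by -0.69 in control livers and by -0.38 in reduced oxygen livers (adjusted p = 0.0124 in the second), Acaa1a by -0.69 and -0.69 (0.00403), Mgll by -0.73 and -0.55 (0.0349, and 0.0921 without reduced oxygen arrays 1 and 2, where the other genes named here kept the call), and Pabpn1 by -1.78 and -1.05 (0.0101). Cirbp differed by -0.51 and -0.77 (0.00618). Tat stood at 0.59 and -0.01, and the difference between arms was not called (adjusted p = 0.347).

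Of the 28 acute phase genes, 0 were called in reduced oxygen livers by limma's adjusted p and 0 had an unadjusted p under 0.05 there, with a median difference of 0.35. Saa2 read 11.50, 14.81, 14.60 and 14.65 in replicates 5 to 8 of those livers, against 9.72, 10.11, 14.73 and 13.89 in replicates 1 to 4. Low and high arrays thus occurred in both sets, and the difference was 1.78 ± 1.16 (adjusted p = 0.251). Lcn2 read 7.07, 13.81, 13.00 and 13.33, against 7.15, 7.08, 13.81 and 11.83. The arrays numbered 5, 1 and 2 were the low ones for both genes. The set difference of Saa2 in reduced oxygen livers minus that in control livers was 5.19, which was not called (adjusted p = 0.347).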

How the data were processed

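Mouse Affymetrix arrays were read from the authors' deposited value table, whose intensity values are linear (5.78 to 43830). Per the submitters' processing notes, RMA and limma were used; their order and versions are not given in the sources used here. The values were converted to log2 without an offset and without further normalization. Of 45101 probe sets, 64 controls were left out, 34958 had 1 gene symbol in the platform annotation, 932 several and 9211 none. For each of 18193 genes the probe set of highest mean over the 8 control liver arrays was used, and genes under the 30th percentile (log2 4.93) were left out, which left 12735.

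Sets were compared with limma 3.58.1 in R 4.3.3 (lmFit and eBayes, two-sided, Benjamini-Hochberg over all genes tested). On simulated data for 12735 genes, 97 of 100 genes changed by log2 1 and 100 of 100 changed by log2 2 were called in the right direction, with 7 false calls. The number of arrays limits the precision. Of 705 entries in 39 gene lists, 644 had a probe set and 568 were tested. Members and lists were chosen with earlier results of these data known. Named genes are all called clock genes and the uncalled core members, up to 5 called genes of smallest p in each other list, and the 12 largest rises and falls over all genes (where a list had no call, up to 2 of smallest p). Fgb stands for the uncalled acute phase genes. Promoters were taken from RefSeq (GRCm38.p6). Same-numbered arrays of different liver groups had deviations correlated at -0.046 to 0.296, so the numbers were not taken to pair samples. Alternatives were quantile normalization, median centring, other filters and probe set rules, a model of 16 liver arrays with and without a covariate of 3' to 5' differences, and leaving out arrays.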

Additional observations from a re-analysis of the deposited data

Results flagged for a closer look

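Among 276 groups of 4 control liver values, for 138 named genes, 18 held an array whose gap to its nearest neighbour was too large a share of the group's range by Dixon's 95% limit, where chance gives about 1 in 20. In the clock, Bhlhe40, a repressor of the loop, was low in replicate 5 (7.795, next 9.101, share of the range 0.899). Among feeding and lipid genes, Insr was high in replicate 8 (9.328, next 9.287, 0.855), Elovl2 was high in replicate 4 (12.106, next 11.895, 0.920) and Apoa4 was low in replicate 2 (11.189, next 11.310, 0.881). Among immune genes, Saa3 was low in replicate 8 (7.207, next 7.610, 0.853), Vcam1 was low in replicate 8 (7.211, next 7.355, 0.832), Cd163 was low in replicate 4 (7.338, next 7.747, 0.848) and Elane was high in replicate 5 (5.732, next 5.650, 0.847). The glucocorticoid-induced Tsc22d3 was low in replicate 5 (9.929, next 10.862, 0.956), Eif4ebp1 was high in replicate 3 (10.721, next 10.460, 0.885) and Cyp2b10 was high in replicate 1 (6.907, next 6.201, 0.924). Of the largest rises and falls, Dnajb9 was high in replicate 7 (11.606, next 10.891, 0.878), Fam71e1 was low in replicate 6 (5.933, next 6.117, 0.889), Lama5 was low in replicate 8 (7.936, next 8.077, 0.880), Tbx3 was low in replicate 3 (7.709, next 8.616, 0.898) and Ampd2 was low in replicate 2 (9.362, next 9.453, 0.952). Of the muscle and stellate cell markers, Des was low in replicate 7 (6.820, next 6.888, 0.849) and Tnni2 was high in replicate 4 (5.827, next 5.456, 0.907). For Insr, Ampd2 and Des the gap in log2 units was small, and for Bhlhe40, Tsc22d3 and Tbx3 it was large.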

How the results depend on the processing

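Of 112 called named genes, 60 kept the call in all 8 fits without 1 control liver array. Without 1 array the calls numbered 2528 to 3750, with 802 to 1161 higher and 1701 to 2589 lower; the clock had 3 to 8, feeding 7 to 13, lipid 8 to 17 and inflammation 20 to 33. The lowest totals came without replicate 6 (2528) or 7 (2536), the lowest higher count without replicate 5 (802), the lowest clock count without 5 or 7 (3 each), and the lowest lipid count without 2, 6 or 7 (8 each). Reduced oxygen livers gave 2341 (without replicate 7) to 3740 calls, 2355 without replicate 4, and spleens 0 to 1187, 1187 without replicate 5 and 2 without replicate 4. Quantile normalization gave 2293 calls, 1045 lower, 2 clock and 6 feeding. Median centring gave 758 higher, 3903 lower and 19 feeding calls. A filter at the 50th percentile gave 583 higher, and the mean of a gene's probe sets 1683 lower. The model of 16 liver arrays gave 3453 calls, with 5 clock, 7 feeding, 10 lipid and 17 inflammation. Chosen after seeing the data, the same 16-array model with the 3' to 5' covariate gave 1824 calls, 581 higher and 1243 lower, with 3 clock, 3 feeding, 5 lipid and 12 inflammation, and leaving out arrays 2 and 3 gave 20 feeding calls. Signs turned for Ampd2 (0.17), Gpt2 (0.22) and Sdha (0.0659) without probe sets that may cross-hybridise, for Acaca (0.12), Mcm3 (-0.0941), Sdha (0.0242) and the uncalled Hnf4a (0.38), Nr1d2 (0.17), Tef (0.0319) and Timeless (-0.0537) with the mean of probe sets, and for Stat2 (-0.0127) with the covariate; the cause was not tested. The control liver sets share no replicate number, so no replicate block fits them, and the block in the test between oxygen arms left 0 calls. Dim genes, near the 30th percentile, have the least signal over background.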

Other observations

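Most members of the other gene groups were not called. Of 22 cytochrome P450 and drug metabolism genes, 6 rose and 0 fell in replicates 5 to 8, or 27.3% called, with a median of 0.12. Of all genes, 30.3% were called, and 10.0% were called higher. The list's mean levels, 11.30 and 11.17, lay in the brightest of the 10 groups, where 3.77% of genes were called higher and 15.6% lower. In the 16-array model with the covariate 0 members were called. Cyp2b10, which the receptor CAR induces, rose by 0.55 (adjusted p = 0.0227), a call lost without replicate 5, 6, 8, 2 or 4 (up to 0.0576) and in the 16-array model (0.167). Of 27 oxidative phosphorylation genes 5 rose and 1 fell, or 22.2% called, at mean levels (12.32 and 12.27) in the same brightest group. With the covariate 0 of them were called higher and 1 lower. Of 24 heat shock genes 2 rose, or 8.33% called: Hspa1b, and the HSP40 gene Dnajb1 by 0.27 (0.0343, lost without replicate 5, 7, 8, 1, 2 or 3, up to 0.0931, and in the 16-array model, 0.101). The serine synthesis gene Phgdh rose by 0.51 ± 0.09 (adjusted p = 0.0031) and differed by 0.49 in reduced oxygen livers (0.0124), and Nr4a1, an immediate early receptor, rose by 0.48 ± 0.08 (adjusted p = 0.0029). Both were called in every fit without 1 array and with the covariate.

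Some markers that liver should carry little of were higher in replicates 5 to 8. Of 6 pancreatic acinar markers 3 rose, with array medians of 5.84 to 6.03, against 5.53 to 5.75, and of 4 muscle markers 2 rose, at 6.09 to 6.46, against 5.81 to 5.97. Of 4 adipocyte markers 2 rose, among them the hormone gene Retn by 0.52 (adjusted p = 0.00484), and the lowest stood at -0.34. Of 6 B cell markers 2 rose, among them Pax5 by 0.46 (0.00493), with a median of 0.03. Of 9 megakaryocyte markers 1 rose, of 6 erythroid markers 1 rose and 1 fell, and of 3 cholangiocyte markers 0 were called by limma's adjusted p, with 0 at an unadjusted p under 0.05. In the dimmest 4 of the 10 brightness groups, 16.2% to 21.1% of all genes were called higher.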
